A study of Drosophila melanogaster with 18 samples.

Results

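The genes described here are the microRNA genes of Drosophila melanogaster other than bantam, and the question is how far the chromatin proteins Scalloped, Yorkie and Jun-related antigen were found at them in eye-antennal discs. Members were all genes of the RefSeq table (assembly Release 6 plus ISO1 MT, the dm6 build of the counts) whose symbol begins with mir- or let-7, apart from mir-ban. The rule gave 261 of 262 such genes, 259 of them were placed on 1 chromosome of the count table, and 254 held enough reads to be tested. The table writes let-7 as mir-let7 and mir-263a as mir-bft. Each member was measured over a window that holds its hairpin, the folded precursor of 50 to 174 bases, and 1 kb on both sides.

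A microRNA is cut from a hairpin in a longer transcript and then guides an Argonaute protein to messages that pair with it, mostly through the bases near its start, the seed, so that those messages are repressed. Many hairpins lie in introns of protein-coding genes and share the transcript of that host, whereas others have a transcript and a promoter of their own. In the fly eye and antenna, microRNAs are known to steady the choice of sense organ fates, to protect bristle cells from death and to set tissue growth. Scalloped (Sd) is the DNA-binding TEAD-family protein of the Hippo pathway, Yorkie (Yki) is its coactivator, and Jun-related antigen (Jra) is the Jun subunit of AP-1, which acts downstream of JNK.

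Proteins were mapped by Targeted DamID, in which a bacterial adenine methyltransferase (Dam), alone or fused to the protein, marks GATC sites close to where it lies, and the marked DNA is amplified and sequenced. The 6 groups of 3 libraries were Eyeless-Gal4 Gal80ts with UAS-Dam-Sd, with UAS-Yki-Dam, with UAS-Dam-Jra, and with UAS-Dam alone in Sets 1, 2 and 3. Dam-Jra is titled as Set 1 while Set 3 has no fusion, so the Dam set that belongs to Dam-Jra is uncertain. It was therefore set against the mean of the 3 Dam sets. All groups thus carried the same driver, which acts in the eye-antennal disc, and the same temperature-sensitive repressor, and the controls also made Dam. After egg laying at 25 °C, the repressor was kept active for 4 days at 18 °C and released for 24 hours at 29 °C, and discs of early third-instar larvae were then dissected. Whether the replicates came from different crosses or animals is not given in the labels, so that p-values may measure technical spread only. A signal from all the labelled cells of the disc cannot tell more cells bound from more binding per cell.

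Libraries held 21.4 to 41.0 M counted reads (M, 1e6), and the median member window held 69 to 386 reads per library. Levels of a window are given as CPM, its reads scaled to the library size after trimmed mean of M values (TMM) scaling. Windows of eye-antennal genes, taken as landmarks of the labelled tissue, were called higher in 12 of 12 cases in Dam-Sd and in Dam-Jra and in 11 of 12 in Yki-Dam. Of all windows, 26.1%, 22% and 32.6% were higher and 30.3%, 20.3% and 36.3% lower in Dam-Sd, Yki-Dam and Dam-Jra. Fat body markers were lower in 4 of 5 cases and higher in 1 in Dam-Sd and in Dam-Jra, and lower in 2 of 5 and higher in 0 in Yki-Dam. Lists of other tissues were mixed: germline markers were higher in 3 of 4 cases for Dam-Sd and 2 of 4 for each other fusion, glial markers in 2 of 5 for Yki-Dam and 3 of 5 for each other fusion, and muscle, neuron and haemocyte lists in 1 or 2 cases each. Lower calls in Dam-Sd, Yki-Dam and Dam-Jra were 1, 2 and 3 of 5 for neuron and 2, 2 and 3 of 5 for haemocyte markers. They were 1, 1 and 2 of 5 for glia, 1, 0 and 0 of 4 for muscle and 0, 0 and 1 of 4 for germline. The part of other tissues in the member windows was not tested. The Dam sets differed among themselves. Of the 254 member windows, 15 were higher and 18 lower in Set 1 than in Set 2 (all windows, 5.81% and 5.61%), 31 and 32 in Set 1 than in Set 3 (12.2% and 16.5%), and 61 and 37 in Set 2 than in Set 3 (16% and 18.9%). Dam-Sd replicate 1 was nearly empty at some windows of low signal. It had 0.0493 CPM or less at all 8 hairpins of the mir-309 cluster, where Dam-Sd replicates 2 and 3 had 1.10 to 5.29 CPM. Other such windows were filled, as at mir-4977 with 134 reads in Dam-Sd replicate 1 and 64 and 81 in replicates 2 and 3. Yki-Dam replicate 1 and Dam replicate 1 of Set 2 were together low at mir-275, mir-305, let-7 and mir-125.

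Of the 259 placed members, 166 lay inside a protein-coding gene and 93 outside. Of the 93, 42 lay inside a noncoding gene and 51 in no gene. Windows held 0 to 42 GATC ends with a median of 12. Windows are not independent, since 74 members shared ends with another hairpin and 218 shared ends with a coding gene's window. Grouped by shared ends they formed 208 loci, 23 of them with 2 or more hairpins and the largest with 8. The 5 members not tested were mir-14, which limits cell death, mir-34, which is known from brain ageing, mir-4962 and mir-4968, whose windows held no GATC end, and mir-999, whose reads were too few. The mature sequences were not used here, and the strand and exon structure of hosts were not used.

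In Dam-Sd against Dam of Set 1, 49 member windows were higher and 66 lower at an adjusted p below 0.05 (edgeR quasi-likelihood test, Benjamini-Hochberg over 14090 windows), where 26.1% of all windows were higher and 30.3% lower. These 49 and 66 are 19.3% and 26.0% of the tested members, and the median log2 fold change was −0.17 in the members and −0.17 in all windows. In Yki-Dam against Dam of Set 2, 45 were higher and 50 lower, 17.7% and 19.7% of members, against 22% and 20.3% of all windows, with medians of −0.32 and −0.13. In Dam-Jra against the mean of the 3 Dam sets, 61 were higher and 100 lower, 24.0% and 39.4% of members, against 32.6% and 36.3% of all windows, with medians of −0.66 and −0.10. Against Set 3 alone, 51 were higher and 68 lower in Dam-Jra, 20.1% and 26.8% of members, where 23.3% and 27% of all windows were. Against Set 1 alone, 59 were higher and 104 lower in Dam-Jra, 23.2% and 40.9% of members, where 31.7% and 37.1% of all windows were. Differences between the members' shares and those of all windows were not tested. Of all 14206 windows, 13946 were those of coding genes, which are mostly longer than hairpin windows. The part of window length and read number in these shares was not tested either. By locus, each of 204 tested loci was counted by its hairpin with the largest absolute log2 fold change. In Dam-Sd 40 were called higher and 58 lower, Yki-Dam gave 38 and 41, and Dam-Jra gave 54 and 75. No locus held hairpins called in both directions.

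The balance of higher and lower rests on the scaling. Without TMM, on library size alone, the all-window median was −1.24 for Dam-Sd, −0.94 for Yki-Dam and −1.03 for Dam-Jra, and the share of called members that were higher became 10.3%, 15.03% and 16.8%, against 42.6%, 47.4% and 37.9% with TMM. With DESeq2 size factors it was 53.9% in Dam-Sd. Values below are therefore read against the median of all windows.

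The medians of hairpins inside and outside coding genes lay apart in Dam-Sd and Yki-Dam, by an amount that depended on the Dam libraries used. In Dam-Sd against Set 1, 26 of 163 hosted windows were higher and 54 lower (median log2 −0.39), whereas 23 of 91 free windows were higher and 12 lower (median 0.11). The difference between the medians, hosted minus free, was −0.84, −0.49 and −0.53 in replicate pairs 1, 2 and 3, and −0.50 in the joint fit. In Yki-Dam, 28 hosted windows were higher and 43 lower (median −0.42), and 17 free windows were higher and 7 lower (median −0.10), with replicate differences of −0.08, −0.39 and −0.37. In Dam-Jra the medians were −0.59 for hosted windows, with 39 higher and 66 lower, and −0.74 for free ones, with 22 higher and 34 lower, and the replicate differences of −0.04, 0.19 and 0.28 had no single sign. When all 9 Dam libraries served as control, an alternative chosen after the data were seen, the difference was −0.088 in Dam-Sd and −0.58 in Yki-Dam, and in Dam-Jra against Set 3 alone it was −0.062. Free hairpins whose windows shared no end with a coding window (39 tested) were higher in 10 cases and lower in 2 for Dam-Sd, with 7 and 3 cases for Yki-Dam and 11 and 8 for Dam-Jra. Windows of hosted hairpins held more reads in Dam (median 6.47 CPM over the 9 Dam libraries, against 4.14 for free ones), and the part of this in the difference was not tested.

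**Figure D1:**
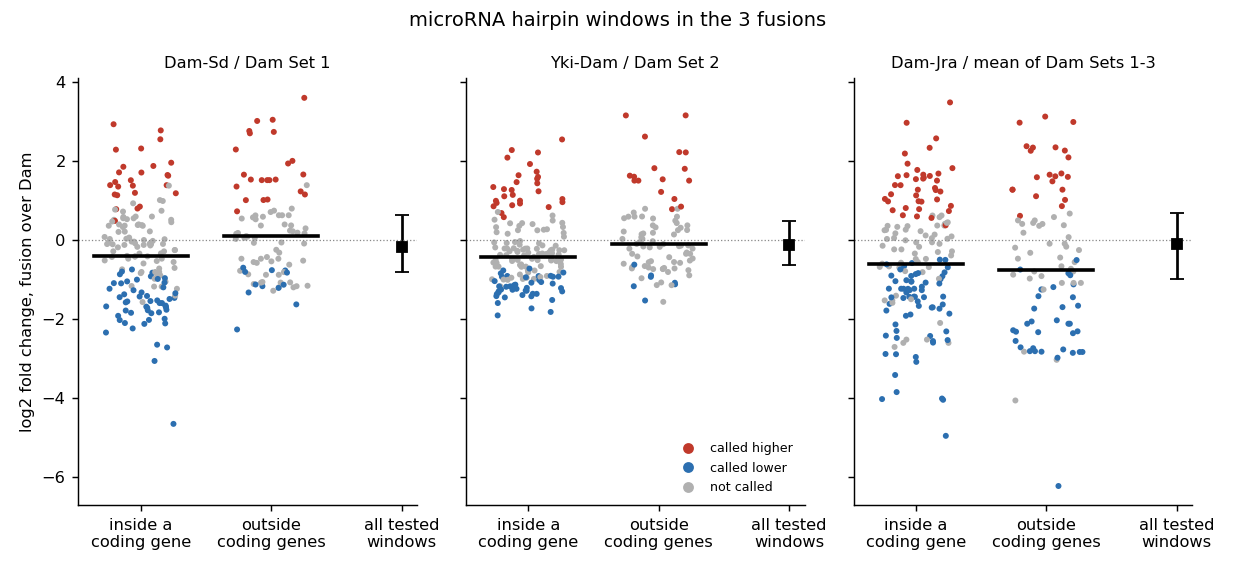
Log2 fold change (y axis) of the 254 tested microRNA windows in each fusion over its Dam control, split by hairpins inside (163) and outside (91) protein-coding genes, beside all 14090 tested windows (square, median; bar, 25th to 75th percentile). Each point is a window, black lines are medians, and the hosted and free medians are −0.39 and 0.11 in Dam-Sd against Set 1 and −0.59 and −0.74 in Dam-Jra (red, called higher; blue, called lower; grey, not called).

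Several of the highest windows belonged to free hairpins with known roles in growth and sense organs. The pair mir-275 (2L:7425795-7425892) and mir-305, of which mir-305 is known to act in intestinal stem cells, lay in the noncoding gene lncRNA:CR43857 or just beside it. Their windows overlap, and each was high in all 3 fusions. The mir-275 window had 359.7, 344 and 247 CPM in Dam-Sd, against 40.9, 42.4 and 31.4 CPM in Dam of Set 1 (log2 3.05 ± 0.45 SE, adjusted p = 1.01e-05). It had 41.1, 256 and 229 CPM in Yki-Dam, against 6.66, 22.6 and 30.2 CPM in Dam of Set 2 (log2 3.17 ± 0.47 SE, adjusted p = 3.52e-05). It had 255, 246 and 254 CPM in Dam-Jra, against a lowest, median and highest of 6.66, 40.9 and 44.7 CPM in the 9 Dam libraries (log2 2.98 ± 0.32 SE, adjusted p = 9.77e-08). Fusion and Dam libraries did not overlap in any of the 3 comparisons, but leading loci were named only where this held, here and below. The lack of overlap is therefore no added support for them. Yki-Dam replicate 1 lay far below the other Yki-Dam replicates. The mir-305 window gave log2 3.02 ± 0.39, 3.16 ± 0.42 and 3.14 ± 0.28 in Dam-Sd, Yki-Dam and Dam-Jra.

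The window of mir-954 (4:626126-626212), on the small chromosome 4, shared ends with that of mav, which codes for a TGF-beta family ligand and lies 95 bases from the hairpin. It had 1043, 713 and 545 CPM in Dam-Sd, against 87.2, 58.6 and 42.7 CPM in Dam of Set 1. That was a 12.2-fold difference in Dam-Sd (log2 3.61 ± 0.29). In Yki-Dam it was 6.18-fold (log2 2.63 ± 0.28 SE, adjusted p = 1.28e-06). In Dam-Jra it was 3.08-fold against the 3 Dam sets (log2 1.62 ± 0.20 SE, adjusted p = 7.84e-07) and log2 1.00 ± 0.27 against Set 3 alone (adjusted p = 0.00425). The Dam-Jra change was below that in Dam-Sd by a difference of log2 −1.99 ± 0.31 (adjusted p = 5.62e-05).

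The gene mir-279 (3R:29215585-29215684), which keeps extra carbon dioxide neurons from forming, had 499, 378 and 224 CPM in Dam-Sd, against 70.4, 55.8 and 37.96 CPM in Dam of Set 1 (log2 2.75 ± 0.30 SE, adjusted p = 4.53e-07). It had 153, 325 and 311 CPM in Yki-Dam, against 44.1, 56.00 and 67.9 CPM in Dam of Set 2 (log2 2.24 ± 0.30 SE, adjusted p = 1.2e-05). It had 353, 386 and 348 CPM in Dam-Jra, against a lowest, median and highest of 37.96, 67.9 and 117 CPM in the 9 Dam libraries (log2 2.36 ± 0.21 SE, adjusted p = 8.6e-09). All fusion libraries lay above all of their controls, as the choice of leading loci required. Its neighbour mir-996 in the same noncoding gene, which shares its seed family and part of its role, had log2 1.03 ± 0.24 in Dam-Sd (adjusted p = 0.00103) and 1.49 ± 0.18 in Dam-Jra (adjusted p = 4.83e-07). The mir-996 window did not pass in Yki-Dam, at log2 0.22 ± 0.25 (adjusted p = 0.48). On library size alone it was −0.062 in Dam-Sd, above the −1.24 of all windows.

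The gene mir-8 (2R:16831432-16831518), which acts on body size through insulin signalling and restrains Wingless signalling, had 306, 284 and 108 CPM in Dam-Sd, against 42.9, 41.3 and 22.7 CPM in Dam of Set 1 (log2 2.71 ± 0.29 SE, adjusted p = 4.5e-07). It had 252, 279 and 289.6 CPM in Yki-Dam, against 54.2, 57.3 and 64.00 CPM in Dam of Set 2 (log2 2.23 ± 0.29 SE, adjusted p = 8.4e-06). It had 331, 317 and 287 CPM in Dam-Jra, against a lowest, median and highest of 22.7, 57.3 and 113 CPM in the 9 Dam libraries (log2 2.38 ± 0.21 SE, adjusted p = 5.11e-09). In Dam-Sd replicate 3 was the lowest, as was Dam replicate 3 of Set 1. No fusion library overlapped its controls, which the choice of leading loci required. These windows stayed called without any 1 library.

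**Figure D2:**
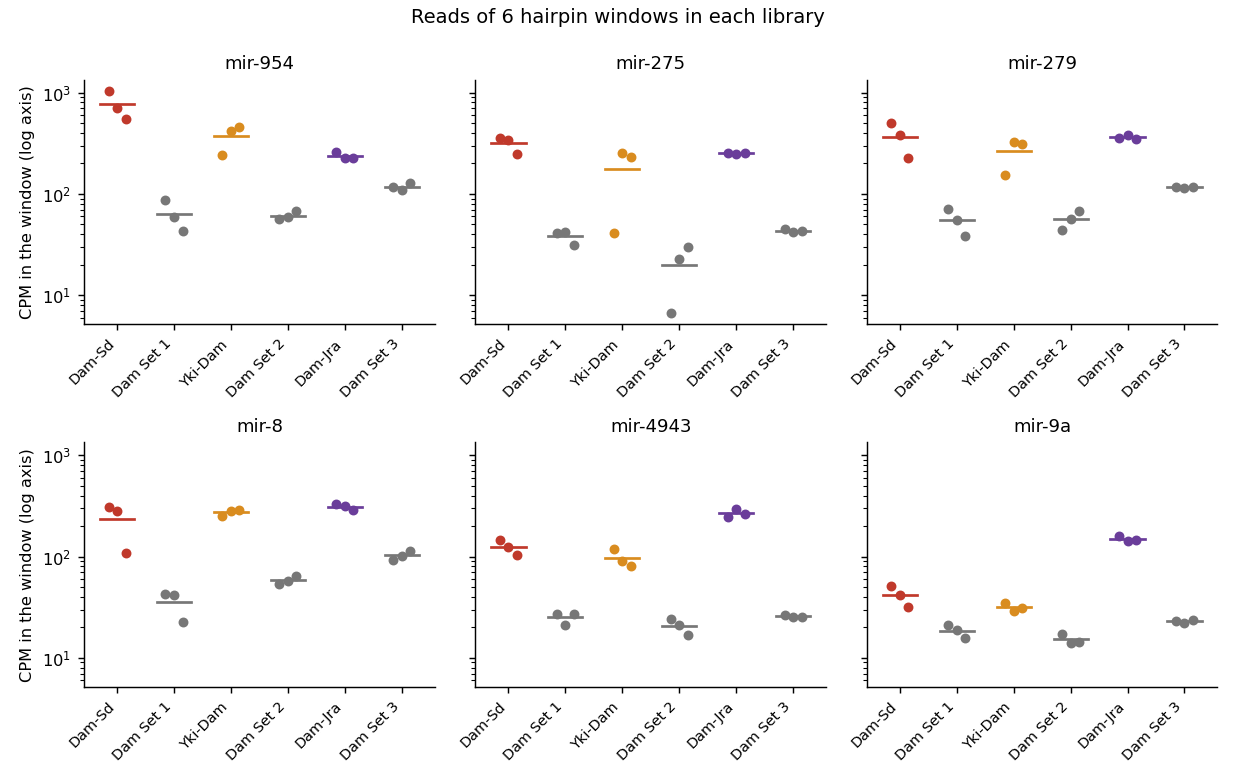
CPM (log axis) of 6 hairpin windows in each of the 18 libraries, with each fusion left of a Dam set and short lines at the means of 3 replicates. Dam-Jra was tested against all 9 Dam libraries, of which Set 3 stands next to it. Every fusion library lies above the Dam libraries it was compared with, which was a condition for naming leading loci. Dam-Jra stands highest at mir-4943 and mir-9a.

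Hosted hairpins that led in Dam-Sd lay in host windows that were themselves higher. The window of mir-92a, known from neural stem cells, lies in jigr1 and had log2 2.94 ± 0.35 with Dam-Sd, 1.61 ± 0.33 with Yki-Dam and 1.40 ± 0.25 with Dam-Jra, with 2.57, 1.72 and 1.38 for the jigr1 window. Against Set 3 alone mir-92a was not called in Dam-Jra (log2 0.46 ± 0.33, adjusted p = 0.244). The window of mir-4955 in trol, the perlecan gene, gave 2.79 ± 0.37, 1.74 ± 0.36 and 1.83 ± 0.26. The window of mir-9377 in Tis11, whose product speeds mRNA decay, gave 2.56 ± 0.40, 2.56 ± 0.41 and 1.69 ± 0.30, and 3.58 in Dam-Sd without Dam replicate 1 of Set 1. In Yki-Dam mir-2492 in the kinase gene Drak (2.29 ± 0.41) and mir-2281 in the RhoGAP gene cv-c (2.10 ± 0.24, and in Dam-Sd −0.12 with 500 base flanks) were also among the 8 highest loci. All adjusted p-values of these called windows were at or below 0.000828.

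In Dam-Sd the neuronal gene mir-124 was among the highest by fold change, at very low counts. It had 1.68, 3.07 and 2.25 CPM in Dam-Sd, against 0.467, 0.383 and 0.208 CPM in Dam of Set 1 (log2 2.77 ± 0.71 SE, adjusted p = 0.00227). Set 1 was low among the Dam sets here, Sets 2 and 3 having 0.654 to 4.57 CPM, and against the mean of the 3 Dam sets log2 was 0.83 and was not called (adjusted p = 0.157). In Yki-Dam (log2 −0.023 ± 0.47, adjusted p = 0.974) and Dam-Jra (0.59 ± 0.50, adjusted p = 0.298) it did not pass.

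In Dam-Jra the highest microRNA windows were mir-4943, mir-305, mir-9a and mir-3645. The hairpin mir-4943 (2L:16528375-16528491), in CG5953, had 248, 297 and 263 CPM in Dam-Jra, against a lowest, median and highest of 16.7, 25.5 and 27.3 CPM in the 9 Dam libraries (log2 3.49 ± 0.14 SE, adjusted p = 7.14e-14). The Dam-Jra libraries lay far above all controls, where the choice of leading loci required no overlap. The same window had 146, 126 and 103 CPM in Dam-Sd, against 27.1, 21.3 and 27.3 CPM in Dam of Set 1 (log2 2.30 ± 0.19 SE, adjusted p = 6.03e-08). In Yki-Dam its log2 fold change was 2.23 ± 0.20, and the host window gave 2.01, 1.82 and 2.12 in Dam-Sd, Yki-Dam and Dam-Jra.

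The gene mir-9a (3L:19565131-19565208), which limits sense organ precursors by repressing senseless, had 161, 143 and 144 CPM in Dam-Jra, against a lowest, median and highest of 14.2, 18.9 and 23.5 CPM in the 9 Dam libraries (log2 3.00 ± 0.13 SE, adjusted p = 3.21e-13). It had 51.00, 41.9 and 31.99 CPM in Dam-Sd, against 21.1, 18.9 and 15.6 CPM in Dam of Set 1 (log2 1.16 ± 0.19 SE, adjusted p = 2.61e-05). It had 34.4, 29.3 and 31.4 CPM in Yki-Dam, against 17.4, 14.2 and 14.3 CPM in Dam of Set 2 (log2 1.05 ± 0.19 SE, adjusted p = 0.000302). Libraries did not overlap in any comparison, which the choice of leading loci required in Dam-Jra only. On library size alone mir-9a was not called in Dam-Sd (0.061) or Yki-Dam (0.24). The change in Dam-Jra exceeded that in Dam-Sd by log2 1.84 ± 0.21 (adjusted p = 1.46e-06) and that in Yki-Dam by 1.95 ± 0.21 (adjusted p = 1.6e-06).

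Other high windows in Dam-Jra were mir-3645 in the myosin light chain gene Mlc-c (log2 2.98 ± 0.16), mir-4959 in the innexin gene Inx5 (2.58 ± 0.21) and mir-310 (2.35 ± 0.15), in a cluster of 7 hairpins close to qsm. The mir-310 window was also higher in Dam-Sd (1.36 ± 0.24) and Yki-Dam (1.81 ± 0.21). The 8 highest loci of each comparison stayed called without any 1 library.

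The lowest windows were mostly hosted hairpins at low counts. The window of mir-4971 (2L:3463290-3463400), in the dosage compensation gene msl-2, had 0.0493, 0.175 and 0.451 CPM in Dam-Sd, against 6.64, 4.28 and 7.34 CPM in Dam of Set 1 (log2 −4.65 ± 0.58 SE, adjusted p = 8.91e-07). It was 25.1-fold lower in Dam-Sd, and without Dam-Sd replicate 3 log2 was −5.66. It was also lower in Yki-Dam (log2 −1.59 ± 0.48, adjusted p = 0.011, not called without Dam replicate 3 of Set 2, where log2 was −1.22) and in Dam-Jra (−1.46 ± 0.37, adjusted p = 0.00121). The msl-2 window as a whole gave 0.02 in Dam-Sd.

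The window of mir-4963 in CG15767 had 0, 0.526 and 1.5 CPM in Dam-Sd, against 6.37, 5.27 and 6.8 CPM in Dam of Set 1 (log2 −3.06 ± 0.50, −4.43 without Dam-Sd replicate 3). In Dam-Jra the same window was higher than the mean of the 3 Dam sets (log2 0.99 ± 0.29) and than Set 3 (1.44 ± 0.37), but not than Set 1 (−0.023), and without Dam-Jra replicate 3 it was not called (0.79, adjusted p = 0.0549). Next in Dam-Sd were mir-9379 in CG30485 (−2.71 ± 0.48) and mir-2489 in kuz, the protease that cleaves Notch (−2.64 ± 0.68). In Yki-Dam the lowest were mir-4940 in nwk (−1.90 ± 0.31), mir-274 in CG32085 (−1.81 ± 0.35) and mir-4908 in CG15539 (−1.73 ± 0.29).

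In Dam-Jra the lowest windows held almost no reads. The window of mir-2499, in a cluster of 6 hairpins, held 0 reads in all 3 Dam-Jra libraries, against 128 in the 9 Dam libraries together, which with a floor of 3 counts over the group is at least 8.16-fold lower. The call was not made against Set 3 alone, which itself had 0.0539 to 0.164 CPM. The window of mir-2279 held 2 reads in Dam-Jra and 436 in Dam, a ratio of 0.0240 (95% exact interval 0.00290 to 0.0872, for counting error only), and that of mir-990 held 2 and 236, a ratio of 0.0443 (0.00534 to 0.162). Neither was called against Set 3 alone (adjusted p = 0.134 and 0.129). The window of mir-284, in the octopamine receptor gene Octbeta2R, had 0.0802, 0.239 and 0.0368 CPM in Dam-Jra, against a lowest, median and highest of 0.863, 1.78 and 4.61 CPM in the 9 Dam libraries (log2 −4.02 ± 0.86 SE, adjusted p = 0.000269, and log2 −5.02 without Dam-Jra replicate 2). Against Set 3 alone mir-284 was also lower (−3.28 ± 1.06, adjusted p = 0.0135).

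MicroRNAs with roles in the eye and sense organs were mir-7, mir-9a, mir-bft, mir-263b, mir-279 and mir-996. Of these 6, at 5 loci, 4 were higher and 2 lower in Dam-Sd, 3 and 2 in Yki-Dam, and 4 and none in Dam-Jra. The all-window shares in these comparisons were 26.1%, 22% and 32.6% higher and 30.3%, 20.3% and 36.3% lower. The list's median log2 values were 1.10, 0.63 and 1.58, against −0.17, −0.13 and −0.10 over all windows. The gene mir-bft, called bereft for the bristles lost in its mutant, had 68.6, 59.2 and 21.6 CPM in Dam-Sd, against 18.8, 16.5 and 11.5 CPM in Dam of Set 1 (log2 1.67 ± 0.29 SE, adjusted p = 6.69e-05). It gave log2 1.83 ± 0.30 in Yki-Dam and 1.66 ± 0.22 in Dam-Jra, with no overlap of libraries. Its partner in protecting bristle cells, mir-263b in the host meru, was lower in Yki-Dam, with 11.05, 5.81 and 5.34 CPM in Yki-Dam, against 17.6, 16.8 and 17.3 CPM in Dam of Set 2 (log2 −1.25 ± 0.28 SE, adjusted p = 0.00142). In Dam-Sd mir-263b was at log2 −0.82 ± 0.30 (adjusted p = 0.0257), and the call was lost with the replicate number as a block (−0.80, adjusted p = 0.0611) and without Dam replicate 2 of Set 1 (−0.53), Dam-Sd replicate 1 (−0.82) or Dam-Sd replicate 2 (−0.73).

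The hairpin mir-7, which promotes photoreceptor differentiation by repressing yan, lies in HnRNP-K. Its window had 3.45, 5.3 and 6.68 CPM in Dam-Sd, against 12.4, 6.06 and 9.81 CPM in Dam of Set 1 (log2 −0.86 ± 0.32 SE, adjusted p = 0.0252). It had 3.23, 6.34 and 5.88 CPM in Yki-Dam, against 7.45, 10.4 and 11.7 CPM in Dam of Set 2 (log2 −0.90 ± 0.31 SE, adjusted p = 0.0253). Libraries overlapped in Dam-Sd but not in Yki-Dam, and in Dam-Jra the window did not pass (log2 0.039 ± 0.24, adjusted p = 0.892). The Dam-Sd call was lost with the block (−0.82, adjusted p = 0.0652) and on leaving out any of 4 libraries, Dam replicates 1 (−0.63) and 3 (−0.84) of Set 1 and Dam-Sd replicates 1 (−0.70) and 2 (−0.85), and the Yki-Dam call without Dam replicate 2 (−0.86) or 3 (−0.76) of Set 2.

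Of 8 tested microRNAs with roles in growth, metabolism and survival, 4 were higher and none lower in each fusion by edgeR (at an unadjusted p below 0.05, and by DESeq2, 1 was lower in Dam-Jra; medians 1.29, 1.07 and 1.02 in Dam-Sd, Yki-Dam and Dam-Jra). Over all windows 26.1%, 22% and 32.6% were higher and 30.3%, 20.3% and 36.3% lower, with medians of −0.17, −0.13 and −0.10. The 4 were mir-8, mir-275, mir-305 and mir-276a in each fusion, of which mir-275 and mir-305 are overlapping windows of 1 locus, and against Set 3 alone 3 were higher in Dam-Jra. The mir-276a window had log2 1.95 ± 0.41 in Dam-Sd (1.34 without Dam-Sd replicate 1), 1.61 ± 0.33 with Yki-Dam and 1.60 ± 0.27 in Dam-Jra, and against Set 3 alone it was not called (0.70 ± 0.31, adjusted p = 0.0676). Its close copy mir-276b passed in none of the 3 (0.19 ± 0.41, 0.035 ± 0.38 and 0.38 ± 0.30). In the growth list mir-184, mir-278 and mir-998 did not pass either. The window of mir-278, known for insulin responsiveness, held 2 reads in Dam-Jra and 106 in Dam, a ratio of 0.0987 (95% exact interval 0.0118 to 0.365), and adjusted p was 0.0529.

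The K-box family, mir-2, mir-6, mir-11, mir-13 and mir-308, is known to repress the reaper-type death genes. Of its 13 windows at 7 loci, none was higher and 1 lower in Dam-Sd by edgeR (none higher and 4 lower at an unadjusted p below 0.05, and 3 higher and 1 lower by DESeq2's Wald test). In Yki-Dam 3 were higher and none lower (the same counts at an unadjusted p below 0.05 and by DESeq2). These were the neighbouring hairpins mir-2a-1, mir-2b-2 and mir-2a-2, which are not 3 separate cases. Among them mir-2a-2 was not called without Dam replicate 2 (0.58) or 3 (0.48) of Set 2 or Yki-Dam replicate 1 (0.37) or 2 (0.38). In Dam-Jra 5 were higher and 3 lower. Of the higher ones, mir-308 was not called without Dam-Jra replicate 2 (0.68) or 3 (0.76). The lower ones were the mir-6 windows, with 12 to 19 reads in each Dam-Jra library, part of the mir-309 cluster described below. Over all windows the shares higher and lower were 26.1% and 30.3% for Dam-Sd, 22% and 20.3% for Yki-Dam, and 32.6% and 36.3% for Dam-Jra. The hairpins mir-2a-1 and mir-2b-2, in the EGF receptor ligand gene spi, gave 0.86 ± 0.21 and 0.95 ± 0.22 in Yki-Dam. Their windows held similar reads, 418, 449 and 541 against 405, 395 and 478 in the Yki-Dam libraries. Dam-Jra gave 0.98 ± 0.16 and 1.04 ± 0.17 at the same windows. In Dam-Sd they gave 0.37 ± 0.19 and 0.39 ± 0.21 and did not pass, while the spi window gave 2.19. The pair mir-11 and mir-998 in the cell cycle gene E2f1 passed in no fusion, with log2 0.0077, 0.50 and 0.46 for mir-11, while the E2f1 window gave 2.74, 2.10 and 1.63.

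The let-7 complex, let-7, mir-100 and mir-125 in 1 noncoding transcript, times development near metamorphosis. None of its 3 windows was called by edgeR in Dam-Sd, Yki-Dam or Dam-Jra (at an unadjusted p below 0.05, and by DESeq2, 1 was lower in Dam-Jra and none in the others). The let-7 window had 5.62, 8.06 and 8.75 CPM in Dam-Sd, against 6.3, 7.62 and 4.03 CPM in Dam of Set 1 (log2 0.37 ± 0.46, adjusted p = 0.501), and libraries overlapped. In Dam-Jra the 3 windows gave −0.91 to −0.55, and mir-125 was called lower against Set 3 alone (−1.08 ± 0.42, adjusted p = 0.039).

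The mir-309 cluster, which clears maternal messages in the early embryo, was lower in Dam-Jra at all 5 windows listed (median log2 −2.81). These windows share most of their ends and count as 1 locus, and 36.3% of all windows were lower in Dam-Jra. At mir-3 the window had 0.722, 0.795 and 0.552 CPM in Dam-Jra, against a lowest, median and highest of 2.2, 6.09 and 7.94 CPM in the 9 Dam libraries (log2 −2.83 ± 0.62 SE, adjusted p = 0.000442), and no library overlapped. In Dam-Sd (−1.07 ± 0.51, adjusted p = 0.0771) and Yki-Dam (−0.73 ± 0.42, adjusted p = 0.164) mir-3 did not pass. With the replicate block all 5 passed in Yki-Dam (mir-3 at −0.75, adjusted p = 0.0268), and mir-4 and mir-5 in Dam-Sd (each −1.25, adjusted p = 0.0464). Without Dam-Sd replicate 3, mir-3 passed in Dam-Sd (−2.43, adjusted p = 0.00492).

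Of 5 microRNAs of other tissues and the Hox clusters, mir-1, the muscle microRNA, was lower in Dam-Sd, with 4.93, 7.67 and 13.6 CPM in Dam-Sd, against 16.01, 22.99 and 21.6 CPM in Dam of Set 1 (log2 −1.16 ± 0.32 SE, adjusted p = 0.00447). With flanks of 500 bases in place of 1 kb the Dam-Sd value was 0.30 and was not called. It was lower in Dam-Jra too (−1.66 ± 0.32, adjusted p = 0.000149), a call also lost with 500 base flanks (−0.40, adjusted p = 0.555). In Yki-Dam it was at −0.93 ± 0.33 (adjusted p = 0.0274), not called with 500 base flanks (−0.33) or without Dam replicate 1 of Set 2 (−0.57) or Yki-Dam replicate 2 (−0.79). The Hox hairpins mir-iab-4 and mir-iab-8, which share 1 window, did not pass in any fusion, and mir-10 was at log2 0.62 ± 0.26 in Dam-Jra (adjusted p = 0.04), lost against Set 3 alone and without any of 7 of the 12 libraries in turn.

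Dam-Sd and Yki-Dam have no control library in common, and neither shares one with Dam-Jra against Set 3. Of 49 windows higher in Dam-Sd and 45 in Yki-Dam, 37 were in both, 75.5% of the first and 82.2% of the second, against 68.5% and 81.5% for all windows. Of 66 and 50 lower windows, 36 were in both (54.5% and 72%, against 45.3% and 67.5% for all windows). No member was higher in one and lower in the other, which was also rare over all windows, with 37 and 9 of 14090. Of the 37 higher in both, 30 were also higher in Dam-Jra against Set 3 (81.1%, against 68.4% for all windows). These shares were not tested against each other.

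**Figure D3:**
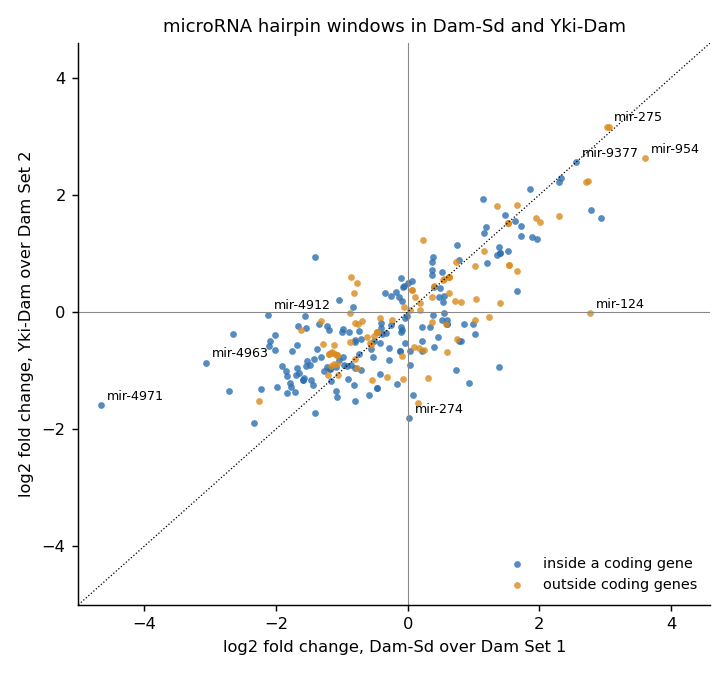
Log2 fold change of the 254 tested microRNA windows in Dam-Sd over Dam of Set 1 (x axis) and in Yki-Dam over Dam of Set 2 (y axis). Points are windows, colored by place inside or outside coding genes, and the dotted line marks equal change. mir-275, mir-954 and mir-9377 lie high in both, while mir-124 stands at 2.77 in Dam-Sd and −0.023 in Yki-Dam.

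Tested directly, the Dam-Sd change exceeded the Yki-Dam change at 4 member windows and was below it at 2 (all windows, 1.4% and 2.2%), all 6 of them hosted. Among the 91 free windows none was called by edgeR, and 7 and 5 had an unadjusted p below 0.05. The higher ones named by rank were mir-4945 (2.14 ± 0.57, adjusted p = 0.0393), mir-274 (1.84 ± 0.48) and mir-4947 (1.30 ± 0.35), and the lower ones mir-4912 (−2.07 ± 0.53) and mir-3643 (−1.53 ± 0.39). None of these 5 stayed called without each library in turn, and the fit on the 12 libraries of the comparison alone called none. With the replicate block the counts were 10 and 8, with DESeq2 size factors 7 and 2, and on library size alone 0 and 4. The mir-4912 hairpin lies in Fnta, and its window had 4.54, 3.24 and 3.57 CPM in Dam-Sd, against 17.8, 12.1 and 18.5 CPM in Dam of Set 1 (log2 −2.12 ± 0.40). It had 18.7, 7.29 and 8.97 CPM in Yki-Dam, against 17.3, 7.68 and 9.92 CPM in Dam of Set 2 (log2 −0.045 ± 0.33).

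Dam-Jra differed from Dam-Sd more often. Its change was larger at 38 member windows and smaller at 41 (all windows, 19.7% and 21%), 30 of the 38 hosted and 19 of the 41 free. On library size alone the counts were 40 and 26. The change in Dam-Jra exceeded that in Yki-Dam at 25 windows and was below it at 24 (all windows, 12.1% and 12.7%). The lower count was unsteady, at 9, 9 and 4 without Dam-Jra replicates 1, 2 and 3, where the higher count was 26, 22 and 22. With Set 3 alone for Dam-Jra the counts were 14 and 5, by DESeq2's Wald test 26 and 43, and against the mean of the 3 Dam sets 34 and 60. These 2 sets of differences share the Dam-Jra libraries and controls.

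The largest difference above Yki-Dam was at mir-4911, in the complex I gene ND-23. Its window had 34.1, 31.9 and 35.1 CPM in Dam-Jra, against a lowest, median and highest of 5.09, 8.22 and 10.1 CPM in the 9 Dam libraries (log2 2.20 ± 0.16 SE, adjusted p = 4.47e-10). It had 6.42, 4.4 and 5.72 CPM in Yki-Dam, against 10.1, 8.68 and 8.22 CPM in Dam of Set 2 (log2 −0.72 ± 0.26 SE, adjusted p = 0.0324). It had 2.61, 4.38 and 7.28 CPM in Dam-Sd, against 8.24, 7.8 and 8.57 CPM in Dam of Set 1 (log2 −0.74 ± 0.27 SE, adjusted p = 0.0251). All Dam-Jra libraries lay above, and all Dam-Sd and Yki-Dam libraries below, their controls. The difference between Dam-Jra and Yki-Dam was log2 2.91 ± 0.27 (adjusted p = 2.29e-07). The lower call in Dam-Sd was lost with the block (−0.75, adjusted p = 0.0942) and without Dam replicate 3 of Set 1 (−0.70), Dam-Sd replicate 1 (−0.52) or 2 (−0.65), and the lower call in Yki-Dam without Dam replicate 1 (−0.62) or 2 (−0.74) of Set 2.

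The hairpin mir-9380 in CG7352 had log2 1.63 ± 0.26 in Dam-Jra and −1.18 ± 0.39 in Yki-Dam (adjusted p = 0.02), a difference of 2.81 ± 0.42 (adjusted p = 8.65e-05). The Yki-Dam call was lost without Dam replicate 1 of Set 2 (−0.91, adjusted p = 0.0896), with 2 kb flanks (−0.23, adjusted p = 0.53) and with all 9 Dam libraries as control (−0.36, adjusted p = 0.44). With 500 base flanks the Dam-Jra value was −0.40 (adjusted p = 0.439) and the difference 1.23 (adjusted p = 0.175), neither called. In the other direction mir-375 was lower in Dam-Jra (−1.69 ± 0.32) and at 0.50 ± 0.28 in Yki-Dam, a difference of −2.19 ± 0.39 (adjusted p = 0.000494). The X-linked mir-10404-4 exceeded Dam-Sd by 2.97 ± 0.83, but its Dam level differed between sets (0.149 to 0.338 CPM in Set 1 and 2.79 to 4.20 CPM in Set 3), and against Set 3 alone Dam-Jra gave 0.33 ± 0.24 (adjusted p = 0.27).

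Other windows at the ends of the ranking were mir-137, higher by 2.37 ± 0.76 than in Yki-Dam, and mir-3644 in Kpc1, lower by a difference of −2.36 ± 0.65. The mir-137 call was lost without Dam replicate 2 of Set 2 (1.84), Yki-Dam replicate 2 (2.32) or Dam-Jra replicate 2 (2.45) or 3 (2.42), and the mir-3644 call without Dam-Jra replicate 2 (−2.14) or 3 (−2.26). Against Dam-Sd, mir-1017 in the acetylcholine receptor gene nAChRalpha2 was lower by a difference of −4.74 ± 1.29 and was not called without Dam-Sd replicate 3 (−3.54, adjusted p = 0.0639).

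Hosted hairpins were set beside the windows of their host genes, which contain them. Over 163 hairpins in 140 host genes the log2 fold changes correlated with r = 0.47 for Dam-Sd, 0.61 for Yki-Dam and 0.69 for Dam-Jra, a description across windows that share ends and libraries. The median hairpin lay below the median host in each fusion, −0.39 against 0.31 with Dam-Sd, −0.42 against 0.092 with Yki-Dam and −0.59 against 0.21 with Dam-Jra. Of the 26, 28 and 39 hosted hairpins that were higher, 25, 24 and 34 lay in a host that was higher, and none in a host that was lower. The reverse, lower in a host that was higher, was seen for 10 hairpins with Dam-Sd, 4 with Yki-Dam and 14 with Dam-Jra. Of these, 6, 3 and 9 stayed so called without each library in turn. Host windows were called higher for 72, 62 and 73 of the 163 hairpins, and lower for 47, 39 and 46. Hairpins of 1 host are not separate cases, such as mir-283, mir-304 and mir-12 in Gmap (Dam-Sd) and mir-306, mir-79 and mir-9b in grp (Dam-Jra).

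Among the hairpins lower in a higher host were mir-12 and mir-304 in the Golgi gene Gmap, in all 3 fusions, named after their values were seen. The mir-12 window had 7.89, 4.51 and 7.36 CPM in Dam-Sd, against 17.1, 23.6 and 23.4 CPM in Dam of Set 1 (log2 −1.70 ± 0.27 SE, adjusted p = 2.98e-05), with all Dam-Sd libraries below the controls, while the Gmap window gave 0.87. In Yki-Dam mir-12 gave −1.07 ± 0.29 and Gmap 0.81, and in Dam-Jra −1.10 ± 0.23 and 0.42. Their neighbour mir-283 was called lower in Dam-Sd (−1.26 ± 0.39, lost without Dam-Sd replicate 2, adjusted p = 0.0569). It was not called for Yki-Dam (adjusted p = 0.0555) or Dam-Jra (adjusted p = 0.497). The hairpin mir-1013 lies in wts, the gene of the Hippo kinase that restrains Yorkie. Its window had 4.34, 2.15 and 5.41 CPM in Dam-Sd, against 16.8, 8.9 and 12.3 CPM in Dam of Set 1 (log2 −1.67 ± 0.34 SE, adjusted p = 0.000312), against 1.83 for wts as a whole, and in Dam-Jra it gave −0.98 ± 0.29 against 0.61 for wts. In Yki-Dam mir-1013 did not pass (−0.24 ± 0.34, adjusted p = 0.582), while wts gave 1.80. The mir-7 window was another case, with host window values of 1.72 and 1.18 for HnRNP-K in Dam-Sd and Yki-Dam.

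**Figure D4:**
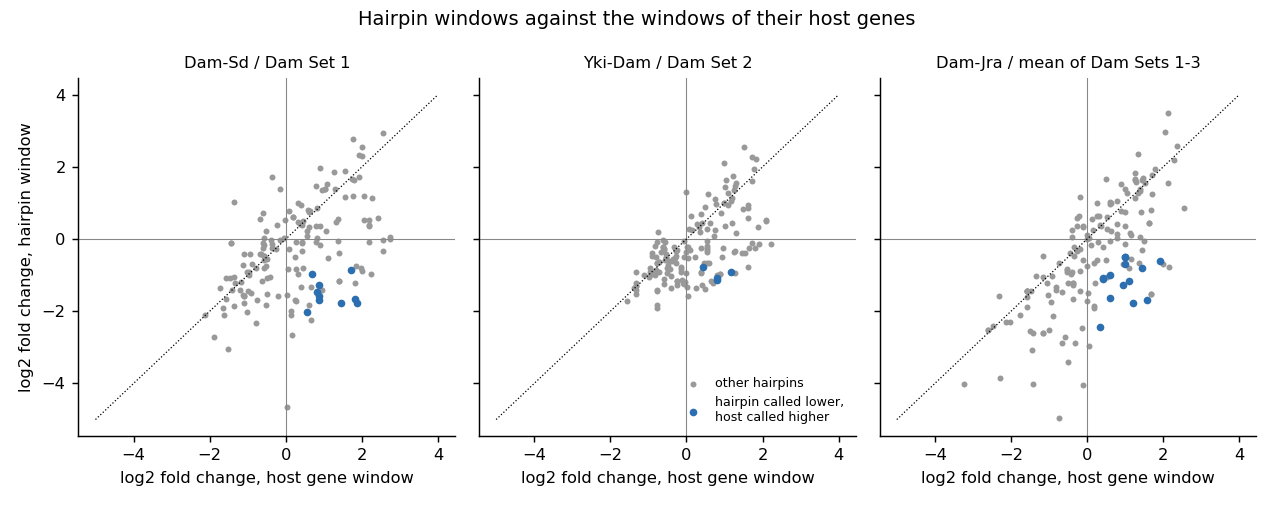
Log2 fold change of 163 hosted hairpin windows (y axis) against that of their host gene windows (x axis) in each fusion. Each point is a hairpin, blue points are hairpins called lower in a host called higher (10, 4 and 14), and no hairpin was called higher in a host called lower.

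Single GATC ends showed where within a window the reads changed. Of 1591 tested ends of member windows, Dam-Sd gave 173 higher and 328 lower, Yki-Dam 134 and 143, and Dam-Jra 308 and 318. Over all 394539 tested ends, the shares higher and lower were 13% and 15.6% for Dam-Sd, 8.96% and 7.17% for Yki-Dam, and 20.2% and 21.6% for Dam-Jra. The 94 ends inside a hairpin were higher in 20.2%, 18.1% and 22.3% of cases in Dam-Sd, Yki-Dam and Dam-Jra. They were lower in 17.0%, 7.45% and 13.8%, with median log2 values of −0.46, −0.44 and −0.011. In the 4 bins of 250 bases outside the hairpin, from near to far, the higher shares were 10.9%, 12.8%, 7.85% and 8.93% in Dam-Sd. For Yki-Dam they were 7.66%, 8.02%, 7.25% and 8.33%, and for Dam-Jra 18.8%, 19.8%, 18.7% and 19.3%, with no steady fall with distance in any fusion. The lower shares in these bins were 19.7%, 21.1%, 23.0% and 19.9% for Dam-Sd. They were 8.12%, 9.02%, 10.3% and 9.23% for Yki-Dam and 16.9%, 18.5%, 25.4% and 22.0% for Dam-Jra. Ends of 1 site share its methylation, and hairpins of 1 locus share ends. At mir-954, 11 of 13 ends were higher with Dam-Sd, 10 with Yki-Dam and 9 with Dam-Jra. At mir-9a all 9 ends were higher in Dam-Jra, up to log2 4.41 ± 0.47 929 bases from the hairpin, against 3 in Dam-Sd and 0 in Yki-Dam. At mir-279 14 of 14 were higher in Dam-Jra, 9 in Dam-Sd and 7 in Yki-Dam.

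**Figure D5:**
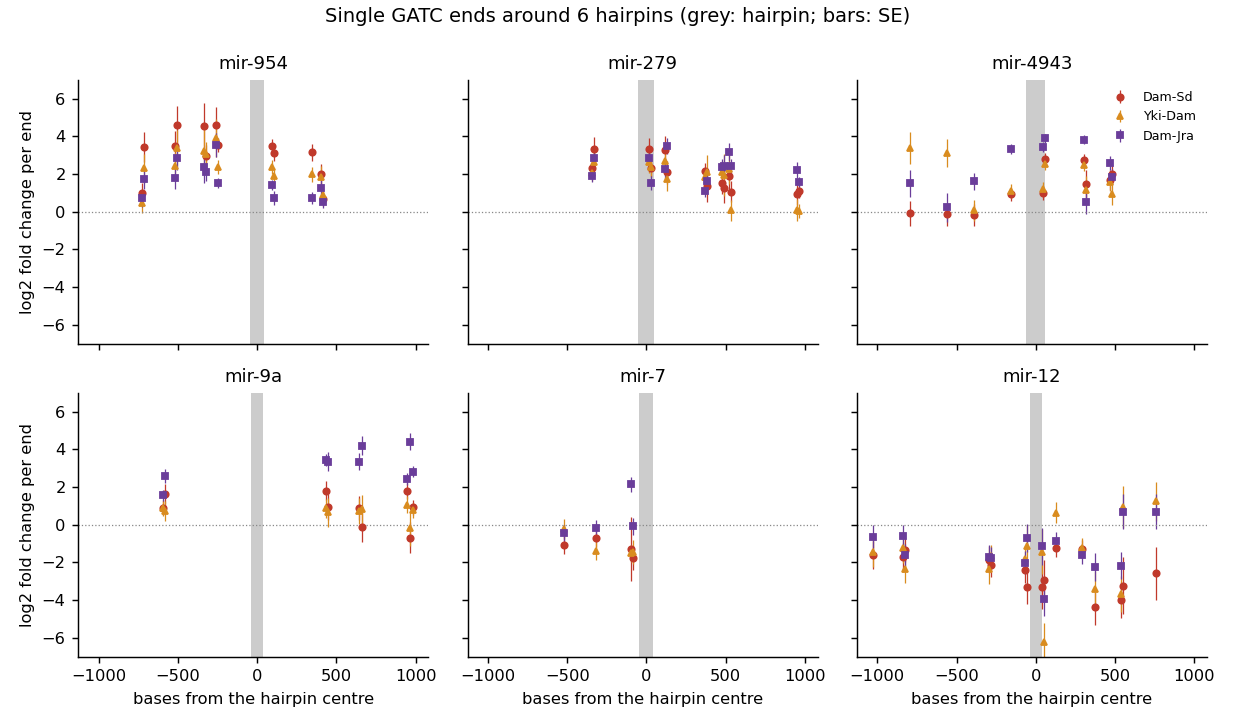
Log2 fold change per GATC end (y axis, bars SE) by distance from the hairpin centre in bases (x axis) for 6 hairpins, with the hairpin in grey. Ends of Dam-Jra (squares) lie above those of Dam-Sd (circles) and Yki-Dam (triangles) around mir-9a, ends around mir-954 and mir-279 lie mostly above 0 in each fusion, and most ends around mir-12 lie below 0.

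The authors' deposited peak lists gave 5057 peaks for Dam-Sd, 3878 for Yki-Dam and 4568 for Dam-Jra. A peak lay in the window of 38 members for Dam-Sd (14.7%), 31 for Yki-Dam (12.0%) and 44 for Dam-Jra (17.0%), against 26.2%, 20.7% and 26.6% of all windows, which are mostly longer. Hairpins of 1 locus can share a peak, and the members with a peak stood at 29, 26 and 37 loci. Of the 259 members, 21 had a peak in all 3 lists and 201 in none. Those in all 3 included mir-275, mir-305, mir-279, mir-8, mir-bft, mir-92a, mir-276a and mir-4943. A hairpin itself touched a peak in 27, 15 and 23 cases. Peaks in all 3 lists, in none, or touching the gene itself were not counted over all windows, so these counts have no background share. In the authors' deposited table the peak at mir-954 had log2 3.11 in Dam-Sd and 2.57 in Yki-Dam, and no peak of Dam-Jra lay in that window. In the authors' deposited table the peak at mir-9a had log2 1.24 in Dam-Sd and 2.17 in Dam-Jra. These folds are the authors' own, and the controls behind them are not named in the labels.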

How the data were processed

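The authors deposited read counts per GATC end for 18 libraries and lists of peaks, each with its log2 fold and p-value. Subread, featureCounts, edgeR and bedtools are named, without versions, in the submitters' processing notes, with the build dm6; how peaks were called is not stated there. The deposited counts of 767321 ends were summed over windows of each gene plus 1 kb (13946 coding and 260 microRNA windows), filtered with filterByExpr at a minimum count of 10, scaled by TMM and fitted jointly over all 18 libraries with edgeR 4.0.16 (quasi-likelihood test, R 4.3.3). P-values were adjusted by the Benjamini-Hochberg method over 14090 windows, and single ends over 394539. Windows near each other share reads, and amplified reads carry no molecular identifiers, so intervals cover counting error only. Same-numbered replicates deviated together for Dam-Sd with Set 1 (r = 0.56, 0.37 and 0.37). Those of Yki-Dam with Set 2 also did (r = 0.62, 0.39 and 0.31), but not those of Dam-Jra. Pairing by number was not clean, since Yki-Dam replicate 3 had r = 0.36 with Dam replicate 2 of Set 2. The main tests did not use the replicate number. With the replicate block, Yki-Dam gave 47 higher and 68 lower members, where the main test gave 45 and 50. Over all windows Yki-Dam gave 3947 and 3858 with the block, and 3094 and 2861 in the main test. For Dam-Sd the block gave 53 and 63 members, where the main test gave 49 and 66. Named genes were the 8 highest and 4 lowest called loci of each fusion whose libraries did not overlap with Dam, the 3 highest and 3 lowest of each difference and the role lists. Members and lists were chosen with earlier results of these data known. Alternatives used DESeq2 1.42.0, other scalings, flanks, controls, the replicate block and each library left out.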

Additional observations from a re-analysis of the deposited data

How the results depend on the processing

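Counts of called windows are given as higher and lower. With library size as the only scaling they were 18 and 157 for Dam-Sd, 26 and 147 for Yki-Dam, 33 and 164 for Dam-Jra, 0 and 4 for Dam-Sd minus Yki-Dam, and 26 lower for Dam-Jra minus Dam-Sd. At an adjusted p below 0.01, 23 were lower in Yki-Dam, 0 and 0 differed for Dam-Sd minus Yki-Dam, and 19 and 6 were lower for Dam-Jra minus Dam-Sd and minus Yki-Dam. Dam-Sd minus Yki-Dam gave 1 and 4 with the older edgeR method, 7 higher with DESeq2 size factors, 10 and 5 with DESeq2's Wald test, 0 and 0 on the comparison's libraries alone, 10 and 8 with the replicate block, 12 and 14 against the mean of the 3 Dam sets, and 1 higher with 500 base flanks. Yki-Dam had 29 lower with 500 base flanks and 88 with 2 kb. Dam-Jra minus Yki-Dam had 43 lower by DESeq2's Wald test and 60 against the mean of the 3 Dam sets. With Set 3 alone for Dam-Jra, Dam-Jra minus Dam-Sd had 22 lower and Dam-Jra minus Yki-Dam 14 and 5. The hosted minus free difference in Dam-Sd was −0.72 with 500 base flanks. In alternatives added after the data were seen it was −0.088 in Dam-Sd and −0.58 in Yki-Dam against the mean of the 3 Dam sets, and −0.062 in Dam-Jra against Set 3 alone. Of the authors' deposited lists, the stronger peaks (the better-ranked part by p) lay at 22 members in Dam-Sd and 28 in Dam-Jra.

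Without 1 library in turn, counts ran over 46 to 56 and 53 to 78 for Dam-Sd, 34 to 43 and 41 to 59 for Yki-Dam, 55 to 64 and 81 to 109 for Dam-Jra, 0 to 20 and 0 to 13 for Dam-Sd minus Yki-Dam, 29 to 39 and 27 to 51 for Dam-Jra minus Dam-Sd, and 22 to 27 and 4 to 29 for Dam-Jra minus Yki-Dam.

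Log2 values that changed sign with 500 base flanks were mir-1 (0.30), mir-274 (−1.93) and mir-2281 (−0.12) in Dam-Sd, mir-137 (−6.05), mir-9380 (−0.40) and mir-13b-2 (−0.044) in Dam-Jra, mir-274 for Dam-Sd minus Yki-Dam (−0.33) and mir-137 for Dam-Jra minus Yki-Dam (−4.34). With 2 kb flanks they were mir-2a-2 (0.59) and mir-13b-2 (0.44) in Dam-Sd, mir-13b-2 in Yki-Dam (1.41), and mir-124 (−1.61), mir-2a-2 (0.92) and mir-4947 (0.13) in Dam-Jra. With other Dam controls they were mir-137 in Yki-Dam (1.93) and mir-4963 in Dam-Jra (−0.023). With library size as the only scaling they were mir-11 (−1.07), mir-274 (−1.08), mir-2a-1 (−0.72), mir-2b-2 (−0.70), mir-2c (−0.93), mir-4947 (−0.32), mir-996 (−0.062) and mir-998 (−1.01) in Dam-Sd, mir-2a-2 (−0.22) and mir-996 (−0.58) in Yki-Dam, and mir-10 (−0.30), mir-13b-2 (−0.048), mir-263b (−0.50), mir-308 (−0.13), mir-3643 (−0.57) and mir-7 (−0.88) in Dam-Jra. Apart from scaling, where the shift of all windows is given above, the cause of these changes was not tested. The replicate block is printed beside each result of Dam-Sd or Yki-Dam in the role lists whose call it changed. Hosts on the same strand as the hairpin were planned as an alternative and not run. Windows of low counts limit the values most in Dam-Jra, where 3 held no read.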
